A study of Homo sapiens and Mus musculus with 20 samples.

Results

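Chromatin accessibility around 10 genes of peptidoglycan recognition and antimicrobial defence was followed in SW480, an established human colorectal adenocarcinoma cell line with ATAC-seq, an assay that marks open chromatin by letting the Tn5 transposase cut and tag it. The genes were PGLYRP1, PGLYRP2, PGLYRP3, PGLYRP4, CAMP, DEFB1, REG3A, REG4, LCN2 and NOD2. Peaks of the 12 SW480 libraries that overlapped were merged, and every merged region in a gene body or within 10 kb on both sides of it was taken, which gave 70 of 252173 regions. The gene set was chosen by a rule that included PGLYRP2 because a peak appeared at its start after butyrate, so PGLYRP2 was selected on its butyrate values and these are described without a test. In one experiment 3 libraries came from cells given 10 mM sodium propionate (NaPr) and 3 from untreated cells, and in a second experiment 3 came from cells given 1 mM sodium butyrate (NaBu) and 3 from a separate set of untreated cells. All cultures were kept in EMEM with serum, treatment lasted 12 to 16 h, and 50000 viable cells entered each reaction. Compound, dose, labelled date and untreated culture differed together between the experiments and cannot be told apart. The labels do not say whether replicates were separate cultures, so the tests measure the spread between these libraries, which may be technical.

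Peptidoglycan is the sugar and peptide mesh of the bacterial wall. Its fragments are read by secreted peptidoglycan recognition proteins and, inside cells, by NOD2, a sensor of muramyl dipeptide that signals to NF-kB. Epithelia and neutrophils answer with secreted effectors, among them cathelicidin, defensins, regenerating family lectins and lipocalin, and in the colon these products help to keep bacteria away from the epithelial surface.

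In each library a region was given the percentile of its highest −log10 p among the regions with a peak there, from 0 for no peak up to 100. A change is treated minus untreated in percentile points. No peak means only that none passed the limit of that library's own list, since all 12 lists were numbered up to 300000 and their weakest −log10 p lay between 3.37 and 9.38. The lowest background, a measure of depth recovered from the lists, was 0.936 to 2.35 tags in the NaPr experiment and 2.11 to 3.03 tags in the NaBu experiment. At that background a listed peak needed at least 5 to 12 tags in the NaPr and 13 to 19 tags in the NaBu experiment, and more where the local background was higher. Of 8 markers of colon epithelium, EPCAM, CDH1, KRT8, KRT18, VIL1 and CDX2 had a peak within 1 kb of a start in all 12 libraries, LGALS4 in 8 and KRT20 in 4. The leukocyte genes PTPRC and CD3E and the hepatocyte gene ALB had none, whereas COL1A1 and PECAM1, genes of fibroblasts and endothelium, had one in 12 libraries.

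The DNA under the regions on which the results turn is shown first, as 200 bases of the GRCh38 plus strand. The windows are centred on the summit of the strongest peak, except for CAMP, where the 200 bases before the annotated start were taken because the summit lies in its UTR. Capitals mark the matches to 15 motifs that were searched on both strands, here the CACCC box CCCACCC, the GC box GGGCGG, the AP-1 element TGANTCA and the CCAAT box CCAATCA, each also in reverse complement.
PGLYRP2 chr19:15499078-15499277: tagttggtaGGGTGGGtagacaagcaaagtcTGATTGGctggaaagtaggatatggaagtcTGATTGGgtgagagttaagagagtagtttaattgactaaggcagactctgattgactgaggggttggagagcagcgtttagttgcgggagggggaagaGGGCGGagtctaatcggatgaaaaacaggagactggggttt
CAMP chr3:48223147-48223346: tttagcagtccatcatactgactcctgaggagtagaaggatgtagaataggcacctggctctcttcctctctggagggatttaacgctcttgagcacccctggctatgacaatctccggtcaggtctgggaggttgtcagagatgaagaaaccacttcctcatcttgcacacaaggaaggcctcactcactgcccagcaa
PGLYRP4 chr1:153349421-153349620: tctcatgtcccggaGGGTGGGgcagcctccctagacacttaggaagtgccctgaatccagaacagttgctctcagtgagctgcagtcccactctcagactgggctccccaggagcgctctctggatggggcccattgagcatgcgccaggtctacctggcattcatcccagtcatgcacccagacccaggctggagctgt
PGLYRP4 chr1:153355614-153355813: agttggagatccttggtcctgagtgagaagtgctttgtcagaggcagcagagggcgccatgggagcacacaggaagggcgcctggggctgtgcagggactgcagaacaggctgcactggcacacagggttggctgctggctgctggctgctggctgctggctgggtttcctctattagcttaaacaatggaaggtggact
LCN2 chr9:128143741-128143940: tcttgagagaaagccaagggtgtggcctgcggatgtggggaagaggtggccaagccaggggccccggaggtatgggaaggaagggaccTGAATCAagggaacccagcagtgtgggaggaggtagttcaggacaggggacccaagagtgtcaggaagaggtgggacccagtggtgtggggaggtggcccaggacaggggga
LCN2 chr9:128150722-128150921: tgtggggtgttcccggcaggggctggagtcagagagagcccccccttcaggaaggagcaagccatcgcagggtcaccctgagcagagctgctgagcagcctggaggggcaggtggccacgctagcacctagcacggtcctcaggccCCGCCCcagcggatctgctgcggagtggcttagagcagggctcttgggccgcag

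The PGLYRP2 window holds 1 CACCC box, 1 GC box and 2 CCAAT boxes. The CCAAT box was added to the search after this window had been read, and at least 2 copies stood in 0.47% of the 252173 windows of the same length, 1 of them a member window. At least 1 copy stood in 2.91% of all windows, and the CACCC and GC boxes stood in 9.05% and 11.3%. Among windows of regions within 1 kb of a coding start, as this one is, the 3 shares were 4.07%, 12.9% and 33.6%. The AP-1 element, present in the LCN2 window upstream of the gene, stood in 16.1% of all windows and in 8.57% of the member windows. The GC box also stood in the second LCN2 window and the CACCC box in the PGLYRP4 window nearest to the gene. None of the 15 motifs matched the CAMP stretch or the second PGLYRP4 window. Such matches describe letters and are not evidence of binding.

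PGLYRP2 encodes an amidase that cuts peptidoglycan and is known mainly as a secreted liver protein. GENCODE gives it 4 transcripts, of which 2 share the RefSeq start at chr19:15479501 and 1 begins 19455 bp upstream, at chr19:15498956. The region that chose the gene, chr19:15498588-15499828, lies over the upstream start, with its strongest summit 222 bp upstream of it. In the NaBu experiment the percentile there was 0 in all 3 untreated libraries, and 81.6, 84.6 and 83.2 in the treated libraries (mean 83.1 ± 1.5, SD, n = 3). The treated summits held 105, 119 and 113 tags, which is 45.1, 48.3 and 44.9 times the lowest background of each library. At their lowest background the 3 untreated lists needed 19, 13 and 15 tags for a peak, and the local background of those libraries at this region is not known. The appearance of this peak is the rule itself and carries no test.

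The NaPr experiment was not used by that rule. There the same region already had a peak in untreated cells, at percentiles of 34.2, 43.1 and 27.1 (mean 34.8 ± 8.05, SD, n = 3), and stood at 77.0, 78.6 and 68.7 after NaPr (mean 74.8 ± 5.34, SD, n = 3). All treated libraries were above all untreated ones. The change was 40.0 points with a standard error of 6.81 (limma adjusted p = 0.0116). In tags over background the untreated libraries had 7.48, 6.79 and 6.93 and the treated libraries 28.8, 31.5 and 27.2. On the log2 scale of these tags the change was 2.04 (limma adjusted p = 6.21e-10). That scale was chosen after seeing the data, and 92.5% of all regions called on it after NaPr were higher. The percentile change missed the threshold in 4 of the 6 fits that left out a library, with an adjusted p of 0.0646 without untreated replicate 3 and of 0.0649, 0.0850 and 0.0687 without treated replicates 1, 2 and 3. It also missed it when peaks were ranked by fold (adjusted p = 0.0798) or on the scale of log2(−log10 p + 1) (adjusted p = 0.101). At this region 3 of 3 untreated libraries of the NaPr experiment had a listed peak, and 0 of 3 of the NaBu experiment. The untreated NaPr summits, at 6.79 to 7.48 times the lowest background, were weak. The untreated NaBu lists needed at least 6.03 to 6.27 times it, and more where the local background was higher. That local background is not known, so these lists cannot show whether the untreated cells differed.

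**Figure D1:**
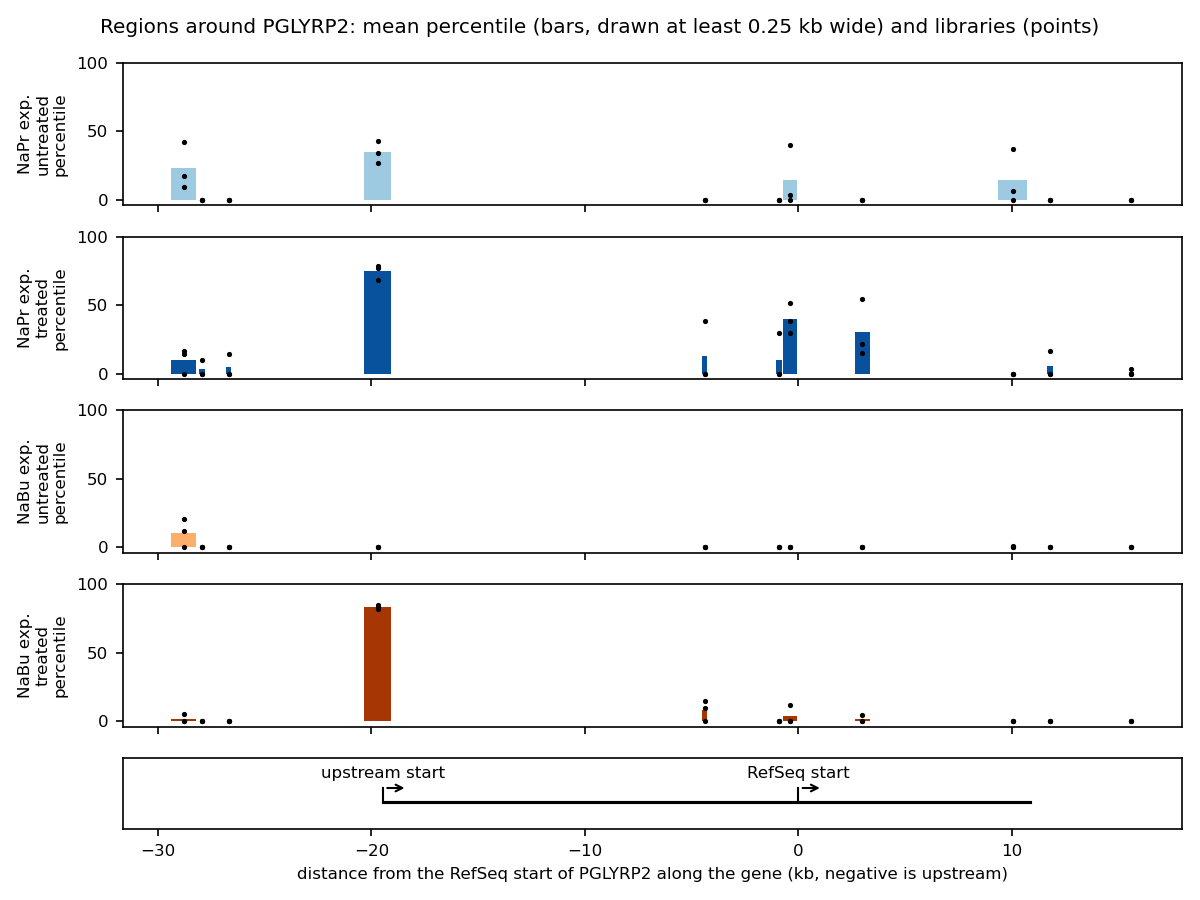
Bars give the mean percentile of each merged region around PGLYRP2 in the 4 groups and points the 3 libraries of a group, against the distance from the RefSeq start in kb along the gene. The tallest bars after NaPr and after NaBu stand at the upstream start, with means of 74.8 and 83.1, and the untreated NaBu libraries have none there.

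Of the 11 regions around PGLYRP2, 5 were tested in the NaPr experiment and only the upstream start was called. The NaBu values of all 11 are given without a test. An intronic region (chr19:15483840-15483941) had a peak in 2 NaBu-treated libraries, at 9.90 and 14.7, and in no untreated library. It also had a peak in 1 NaPr-treated library, at 38.7. The region over the middle start and beside the RefSeq start (chr19:15479557-15480235) had percentiles of 0, 40.3 and 3.70 in untreated and 29.9, 38.7 and 51.6 in NaPr-treated libraries, an overlap, with a change of 25.4 points (SE 13.7, adjusted p = 0.283). In the NaBu experiment only treated replicate 3 had a peak there, at 11.6. A second region 523 bp from the middle start had a peak in 1 library. A region over coding sequence (chr19:15476160-15476858) was at 0 in the untreated and at 54.2, 14.9 and 21.7 in the NaPr-treated libraries, and its change of 30.3 points did not pass the test (SE 11.4, adjusted p = 0.143). Of the 11 regions, 6 lay nearer to the start of RASAL3 or CYP4F22, and 5 had a peak in 1 library only.

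The share of regions that passed the test over the whole genome sets the scale for the other members. After NaPr 6598 of 124067 tested regions were called at an adjusted p below 0.05, which is 5.32%. Of the 37 member regions tested, the PGLYRP2 upstream start was the 1 called. An unadjusted limma p below 0.05 was found for 8 of these 37, beside 28645 of the 124067 regions, so the 8 are not an excess. After NaBu 45903 of 123730 regions were called, or 37.1%, and 24% were called higher. Of the 26 tested regions of the 9 genes other than PGLYRP2, 7 were higher and 1 was lower, together 30.8%, which is not above that background. Of the 26, 5 had peaks in 1 arm only and so passed the filter through the arm where they are high, among them 2 of the 7 higher ones. Another of the 7, the PGLYRP4 region chr1:153353672-153353840, had 1 untreated peak, at 0.92, and also passed only through the treated libraries. The median change of the 26 was 3.46 points beside 2.92 over all tested regions, and after NaPr 0.34 over 32 regions beside 0.53. The direction of the NaBu calls depended on the scale. Of all regions called, 64.7% were higher on percentiles and 45.5% on recovered tags scaled by the background. On that tag scale 4 member regions were higher and 4 lower of 18 tested, beside 38317 of 72559 regions called over the genome. In all, 28 member regions were tested in neither experiment because fewer than 2 libraries of each had a peak, 27 had a peak in 1 library, and 11 had one in all 12.

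**Figure D2:**
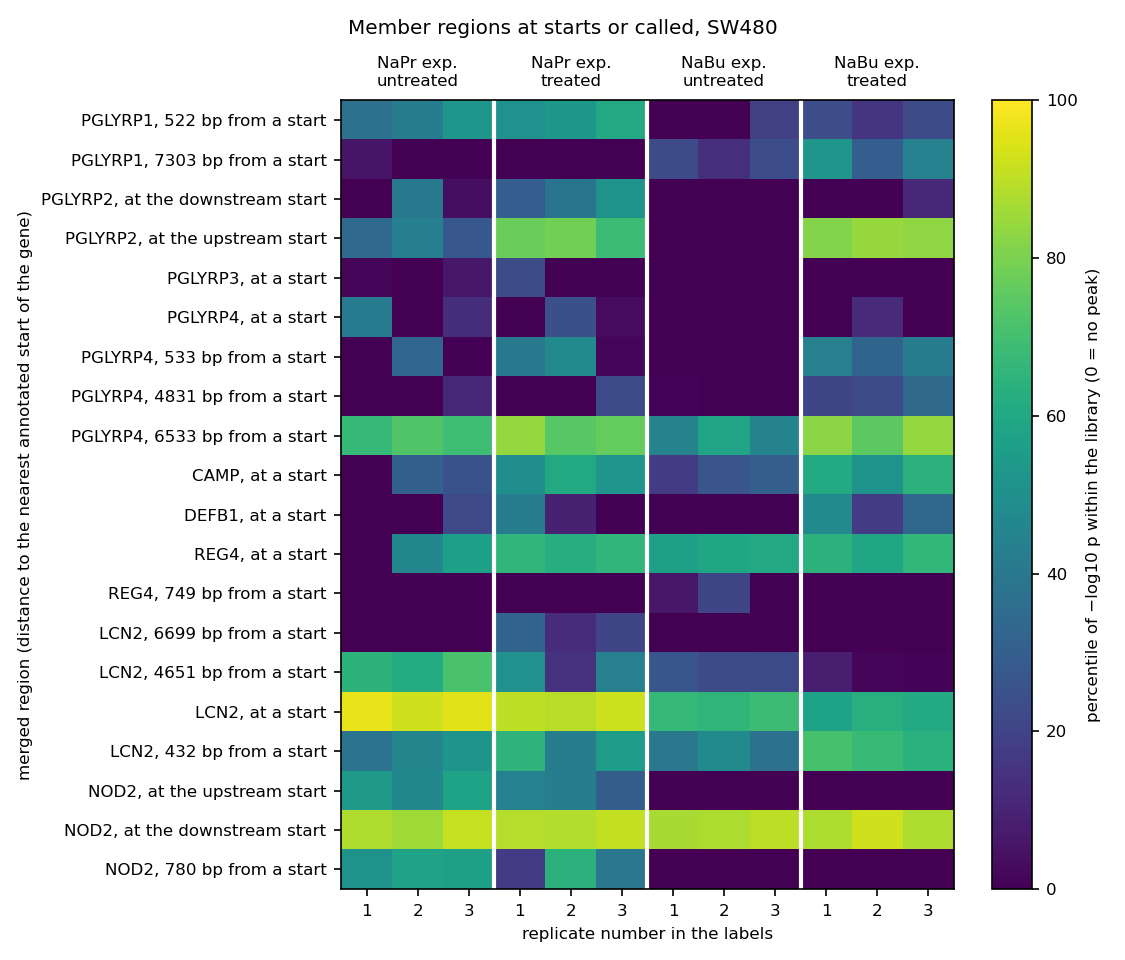
Colour gives the percentile of −log10 p within the library, from 0 for no peak to 100, for the member regions within 1 kb of a start of their gene that had a peak in at least 2 libraries and for every called region, with the 12 SW480 libraries as columns. The PGLYRP2 upstream start turns from 0 to over 80 between untreated and NaBu-treated libraries, and the NOD2 downstream start (chr16:50695762-50697344) stays above 85 in all 12.

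PGLYRP1, a granule protein of neutrophils on chromosome 19, had 8 regions. The one nearest to its start (chr19:46021310-46022531, 522 bp away) was at 37.5, 42.0 and 52.4 in untreated and 50.5, 53.5 and 60.3 in NaPr-treated libraries, and at 0, 0 and 19.1 against 23.6, 15.4 and 23.3 in the NaBu experiment. Neither change passed the test (adjusted p = 0.423 and 0.118), and without NaBu untreated replicate 3 the second did, at an adjusted p of 0.03. That fit left no untreated peak, so the region entered it only through the treated libraries, where it is high, and the pass adds little. A region 7303 bp upstream, over an exon of the noncoding gene ENSG00000268401 (chr19:46030356-46031415), was higher after NaBu, at 52.0, 29.9 and 44.4 against 22.8, 13.3 and 23.8, a change of 22.1 points (SE 7.32, adjusted p = 0.0439). The groups did not overlap, but the call was lost in 5 of the 6 fits that left out a library, all except that without treated replicate 2. These left out untreated replicate 1, 2 or 3 (adjusted p = 0.0838, 0.124 and 0.0750) or treated replicate 1 or 3 (0.110 and 0.109), and it was also lost by fold (0.137), with 50% coverage (0.0723), with no filter (0.0805) and on the log2(−log10 p + 1) scale (0.136).

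PGLYRP3 and PGLYRP4 are neighbours on chromosome 1, beside the S100A genes, and are known from skin and other squamous epithelia. PGLYRP3 had 5 regions and none was called. Its start region (chr1:153312641-153313148) had a peak in 3 of 12 libraries, all of the NaPr experiment and at most at the percentile 23.1. PGLYRP4 had 11 regions, 3 of them higher after NaBu. The nearest, 533 bp upstream of the start (chr1:153349374-153349791), was at 0 in the 3 untreated libraries and at 43.5, 32.4 and 42.2 in the treated ones, a change of 39.4 points (SE 5.52, adjusted p = 0.00137). With no untreated peak it entered the test only through the treated libraries, where it is high, so the test adds little to these values. Its summits there held 37, 34 and 41 tags. In the NaPr experiment the same region was at 0, 32.7 and 0 against 40.5, 47.7 and 1.66, which overlap (adjusted p = 0.450). The region over the start itself (chr1:153348518-153348884) had a peak in 5 libraries, was tested in the NaPr experiment only and was not called (adjusted p = 0.687).

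The other called PGLYRP4 regions lay nearer to the start of S100A9, which encodes a subunit of calprotectin, an antimicrobial protein that binds zinc. The stronger (chr1:153355374-153355975) had a peak in all 12 libraries. It was at 44.8, 58.4 and 44.8 in untreated and 82.6, 75.0 and 84.4 in NaBu-treated libraries, a change of 31.4 points (SE 4.52, adjusted p = 0.00153). In tags over background this was 14.5, 19.4 and 14.9 against 44.2, 34.5 and 46.9, so each treated library exceeded each untreated one on both scales. After NaPr it went from 66.8, 72.7 and 69.1 to 84.1, 74.0 and 76.5, a change of 8.62 points that did not pass (SE 3.22, adjusted p = 0.140). On tags scaled by the background the NaPr change passed, at 0.73 on the log2 scale (adjusted p = 0.0423). The weaker (chr1:153353672-153353840) was at 0.92, 0 and 0 against 21.1, 22.4 and 34.4 after NaBu (change 25.6, SE 5.34, adjusted p = 0.00691), and at 0, 0 and 11.7 against 0, 0 and 22.5 in the NaPr experiment. With 1 untreated NaBu peak, at 0.92, this weaker region passed the filter only through the treated libraries, where it is high. The NaBu test therefore adds little to its values. The stronger call was lost when an interval had to cover 50% of the region (adjusted p = 0.0523), and the weaker by fold (0.152) and on the log2(−log10 p + 1) scale (0.0960).

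CAMP encodes the cathelicidin precursor, from which an antimicrobial peptide is cut. Its start region (chr3:48222674-48223850, summit in the UTR) was at 17.4, 26.4 and 30.4 in untreated and 61.1, 51.1 and 64.3 in NaBu-treated libraries. No treated library was as low as an untreated one, and the change was 34.1 points (SE 6.23, adjusted p = 0.00398). Among the top 50000 intervals of each list alone it was not called (adjusted p = 0.134). In the NaPr experiment the values were 0, 30.5 and 25.2 against 49.99, 60.8 and 52.2. These groups also did not overlap, and the change was of similar size, 35.8 points, but with an SE of 11.7 it did not pass (adjusted p = 0.0960), except in one fit of all 12 libraries (0.0110). In tags over background the NaBu experiment gave 7.92, 9.47 and 10.1 untreated against 21.0, 17.0 and 22.6 treated. The NaBu minus NaPr difference was −1.68 points (SE 10.95), an interval too wide to show that the changes were alike. Of the other 6 CAMP regions, 4 had a peak in 1 library, and one beyond its 3′ end, whose nearest start was that of ZNF589, stayed between 90.1 and 94.2.

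DEFB1 encodes a beta-defensin that epithelia make without stimulation. Its start region (chr8:6877095-6878388) had no peak in the untreated NaBu libraries and stood at 47.6, 17.7 and 33.7 after NaBu, with 31, 20 and 25 tags at the summit. The region entered the test only through the treated libraries, so the test adds little to these values. The change was 33.0 points (SE 7.62, adjusted p = 0.0107), and the call was lost, at an adjusted p of 0.211, when an interval had to cover at least 50% of the region. In the NaPr experiment 1 untreated library (21.9) and 2 treated libraries (42.3 and 9.08) had a peak, and the groups overlapped (adjusted p = 0.646). An intron of GS1-24F4.2 lies over the same summit. The second DEFB1 region was seen in 2 untreated NaPr libraries only.

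The regenerating family genes encode secreted lectins, of which REG3A binds the peptidoglycan of Gram-positive bacteria. REG3A had 2 regions, each with a peak in 1 library, at percentiles of 38.2 and 21.6, and neither was tested. REG4 had 4 regions and none was called. Its start region (chr1:119808639-119809433), at the start of 1 shorter transcript, was at 56.7, 59.3 and 60.3 in untreated and 64.1, 58.6 and 66.4 in NaBu-treated libraries, which overlap. A region 749 bp from a start had a peak in 2 untreated NaBu libraries, at 6.54 and 20.8 (adjusted p = 0.228). In the NaPr experiment, at the start region, untreated replicate 1 had no peak while the other untreated libraries were at 46.2 and 56.4, and the treated libraries were at 65.7, 62.2 and 65.8 (change 30.3, SE 12.7, adjusted p = 0.184). No region lay within 1 kb of the longer transcripts' starts at chr1:119811460 and chr1:119811580.

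**Figure D3:**
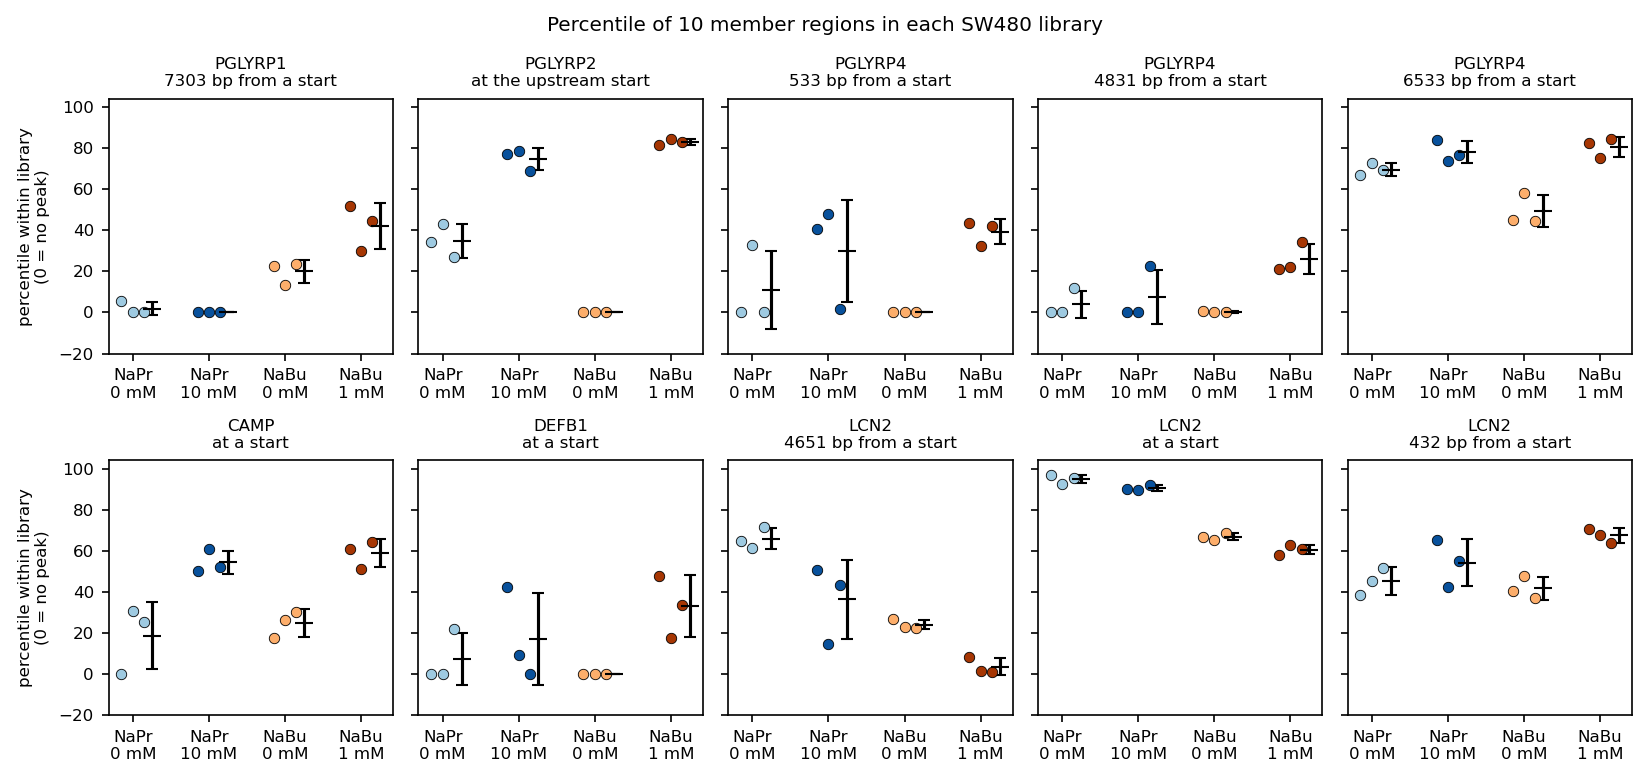
Points are the percentiles of single libraries, with the group mean and SD beside them (n = 3), for the 9 called member regions and the LCN2 start. After NaBu all treated points lie above the untreated ones in 8 panels, and they lie below them at the LCN2 start and 4651 bp upstream of it.

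LCN2 encodes a lipocalin that binds bacterial siderophores and so withholds iron, and its regions moved in both directions. The start region (chr9:128148620-128149745) was among the strongest of the members in the NaPr experiment, at 96.7, 92.7 and 95.6 untreated and 90.3, 89.4 and 92.2 treated. In the NaBu experiment it was lower from the outset, at 66.5, 65.4 and 68.7 untreated and 58.0, 62.6 and 61.0 treated. Both times the treated libraries lay below the untreated ones without passing the test (−4.37 points, SE 1.24, adjusted p = 0.0640, and −6.29 points, SE 2.94, adjusted p = 0.126). The NaPr decrease passed for the top 50000 intervals (adjusted p = 0.0388), with a peak in at least 3 libraries (0.0471) and on tags scaled by their median (3.14e-06), and the NaBu decrease for the top 50000 intervals (0.0104) and in one fit of 12 libraries (0.0160). On tags scaled by the background the NaPr decrease did not pass (−0.39 on the log2 scale, adjusted p = 0.251). The NaBu decrease passed on that scale (−0.33, adjusted p = 0.0415). Upstream of the gene, chr9:128143586-128144420 was lower after NaBu, at 26.6, 23.01 and 22.6 against 8.26, 1.48 and 1.01 (−20.5 points, SE 4.87, adjusted p = 0.0122). That call did not hold on recovered tags, where 34, 20 and 23 tags faced 19, 19 and 19 (adjusted p = 0.112), on the log2(−log10 p + 1) scale (0.213) or in one fit of all 12 libraries (0.0628). In the NaPr experiment this region went from 64.6, 61.5 and 71.4 to 50.6, 14.7 and 43.4 (adjusted p = 0.0956). That decrease passed in the 12-library fit (0.0337) and on tags scaled by their median (0.000414). It did not pass on tags scaled by the background (0.0853). Over the genome, 12969 of the 20947 regions called after NaPr on the median scale were lower. Inside the gene, the intronic region chr9:128150514-128151068 was higher after NaBu, at 40.2, 47.9 and 37.2 against 70.8, 67.7 and 63.8 (25.7 points, SE 4.55, adjusted p = 0.00348), and it passed in all 18 alternative fits, with the adjusted p up to 0.0206. After NaPr it was at 38.2, 45.5 and 51.8 against 65.2, 42.3 and 54.8, which overlap. A region 202 bp from a start had a peak in 1 library, at 6.96. The region at the start of the neighbour BBLN, downstream of LCN2, stayed between 91.9 and 95.6.

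NOD2 had the most regions, 14, and none was called in either experiment. No region lay within 1 kb of the start at chr16:50712194, which 8 transcripts use. The region chr16:50695762-50697344 lies over the starts at chr16:50697139 and chr16:50697140, used by 1 and 2 transcripts. It had a peak in all 12 libraries, from 85.9 to 92.7. Its changes were 0.98 points after NaPr (SE 1.49, adjusted p = 0.718) and 1.26 points after NaBu (SE 1.54, adjusted p = 0.534). The upstream start, used by 5 transcripts (chr16:50693261-50693702), was at 54.1, 46.8 and 57.9 in untreated and 44.1, 42.2 and 29.5 in NaPr-treated libraries (adjusted p = 0.341), and it had no peak in any of the 6 libraries of the NaBu experiment. Its NaPr-experiment summits held 18.7 to 35.6 times the lowest background but only 2.94 to 4.28 times the local one, so the limit of the NaBu lists at this place is not known. A region 780 bp from a NOD2 start (chr16:50697920-50698423) had the same distribution, at 51.5, 57.6 and 57.0 in untreated and 17.4, 64.3 and 39.2 in NaPr-treated libraries (adjusted p = 0.432) and no peak in the NaBu experiment. Those 433 bp and 365 bp from a start had a peak in 1 library each, at 1.88 and 4.33. Altogether 4 member regions had a peak in all 6 libraries of the NaPr experiment and none in the other, 3 of NOD2 and 1 of PGLYRP1, which is 5.71% of the member regions beside 1.32% of all merged regions. The reverse was seen for 0 member regions and 3.63% of all regions. This difference lay between the experiments and not between treated and untreated cells.

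**Figure D4:**
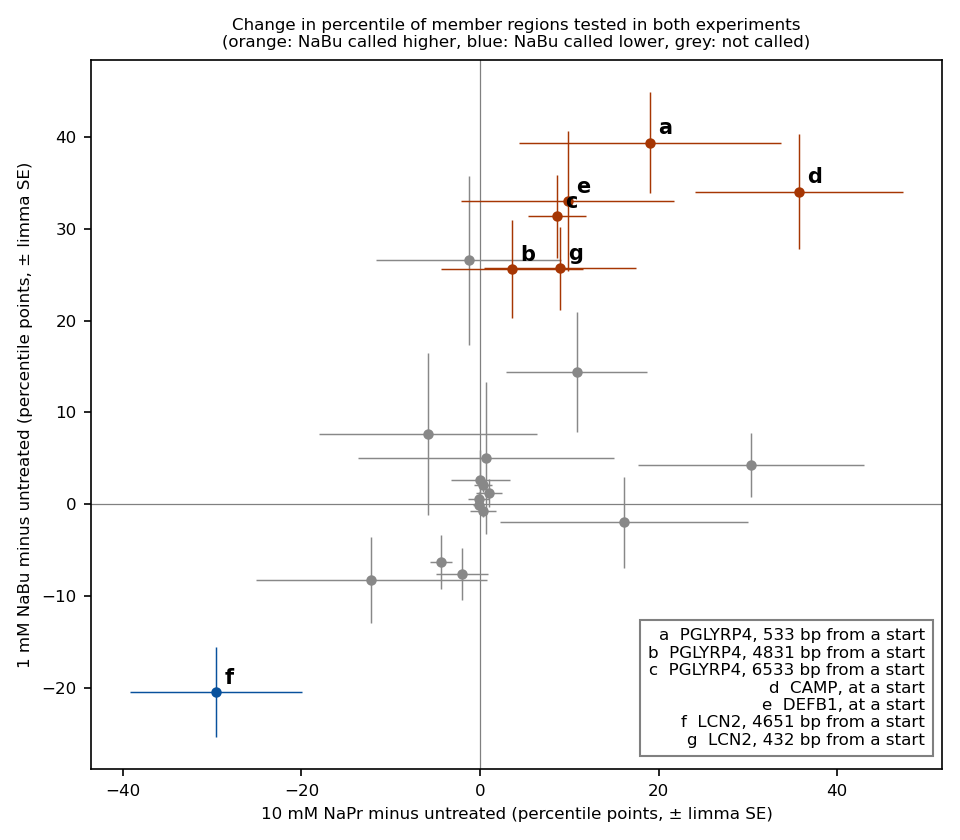
Each point is 1 of the 22 member regions tested in both experiments, PGLYRP2 left out, with the change after 10 mM NaPr on the x axis and after 1 mM NaBu on the y axis in percentile points, and bars are limma standard errors. The 6 regions called higher after NaBu lie at positive NaPr values and the 1 called lower at a negative NaPr value, but none of the 7 was called after NaPr. The PGLYRP1 region 7303 bp upstream, also called higher after NaBu, is not drawn because it was not tested after NaPr, where its change was −1.82 points. How often the signs match over all regions was not measured.

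The changes were also compared between the experiments, although 10 mM NaPr and 1 mM NaBu are not matched doses. Of the 37 regions tested for the 9 genes other than PGLYRP2, 2 differed, beside 11.6% of 167303 regions over the genome. The PGLYRP4 region nearest to S100A9's start among those called (chr1:153355374-153355975) changed by 22.7 points more with NaBu (SE 5.86, adjusted p = 0.0285). A region 6699 bp upstream of LCN2 (chr9:128142060-128142372) was at 32.0, 12.8 and 21.0 in the NaPr-treated libraries and had no peak in the other 9, a difference of −21.9 points (SE 5.92, adjusted p = 0.0349). It was tested only because of the NaPr-treated libraries, where it is high. Its own NaPr change did not pass (adjusted p = 0.146), except in one fit of 12 libraries (0.00866). The PGLYRP4 difference was lost in 7 of the 12 fits that left out a library (NaPr untreated replicate 2, NaPr treated 2 or 3, NaBu untreated 1 or 3, NaBu treated 1 or 3), with adjusted p of 0.0580 to 0.0709. The LCN2 difference was lost in 9 of 12, whenever an untreated NaPr or any NaBu library was left out, with adjusted p of 0.0564 to 0.0629. Both were lost by fold (0.186 and 0.177) and with no filter (0.0518 and 0.0599), and the PGLYRP4 difference also for the top 50000 intervals (0.0541), with 50% coverage (0.269) and on the log2(−log10 p + 1) scale (0.323).

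A wider set of genes gives the setting. For genes of bacterial sensing, 8 of 124 tested regions were called after NaPr (5 higher, 3 lower) and 51 of 119 after NaBu (29 higher, 22 lower). For other antimicrobial effectors, 9 of 141 were called after NaPr (5 higher, 4 lower) and 40 of 122 after NaBu (30 higher, 10 lower). These shares were 6.45%, 42.9%, 6.38% and 32.8%, beside the 5.32% and 37.1% over all regions. The largest NaPr change was at the start of NLRX1, a mitochondrial receptor of the NOD family, which had no peak in untreated libraries and stood at 60.7, 63.2 and 60.2 after NaPr (adjusted p = 0.0124). Next came regions 3690 bp from a start of TRAF6, an adaptor of Toll-like receptor signalling (52.9 points, adjusted p = 0.0254), 3812 bp from BPI, which encodes a protein that permeabilises Gram-negative bacteria (52.6 points, 0.0259), and 3988 bp from GNLY, which encodes granulysin (50.9 points, 0.0285). After NaBu the largest change was a decrease at the start of LTF, the lactoferrin gene, from 70.1, 72.2 and 74.8 to 39.8, 1.57 and 0 (−58.6 points, SE 10.3, adjusted p = 0.00333). Regions near IRAK1, a kinase of the same signalling chain, and XIAP, which NOD2 signalling needs, rose by 49.7 and 47.0 points, and one 1201 bp from a TRAF6 start fell by 47.2 points, with adjusted p of 0.000619, 0.000775 and 0.000928. The regions of NLRX1 and BPI after NaPr, and of IRAK1, XIAP and TRAF6 after NaBu, had peaks in 1 arm only. They entered the test through the arm where they are high. With 1 untreated NaPr peak, at 13.3, the GNLY region also passed the filter only through the treated libraries. The tests add little to the values of these regions.

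The start regions most like the PGLYRP2 upstream start were taken over the 36991 regions within 1 kb of a coding start, by the distance between their 12 percentiles. They belonged to F12, which encodes a coagulation factor, COLGALT1, AKAP1, ALDH16A1 and FHAD1, at distances of 33.5, 40.6, 44.3, 47.0 and 47.4 percentile points. F12 had no peak in the untreated NaBu libraries and stood at 74.0, 77.3 and 79.1 after NaBu, and at 10.2, 50.7 and 44.1 against 69.9, 76.4 and 64.5 in the NaPr experiment. As these were picked for their values they carry no test.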

How the data were processed

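The 12 SW480 ATAC-seq libraries were used, in 4 groups of 3 taken from the labels, and the 8 CT26 mouse libraries were not used here. Per the labels, the authors processed reads with bcl2fastq 2.17.1, cutadapt 1.9.1, Bowtie2 2.3.1 and MACS2 2.1.0. The files use GRCh38. The authors called peaks in each library and deposited lists with fold enrichment as a ratio, −log10 p and −log10 q for each summit. Peaks weaker than the end of a list are missing, so an absent peak is not closed chromatin, and ranks compare peaks within a library, not read counts.

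Intervals overlapping by at least 1 bp were merged over the 12 libraries and each region was ranked in its library on its top −log10 p. Regions with a peak in at least 2 of the 6 libraries of an experiment (2 of 12 for the difference of changes) were tested with limma 3.58.1 in R 4.3.3, two-sided, with an intensity trend and Benjamini-Hochberg adjustment over all tested regions at 0.05. Other steps used Python 3.11.15. Tags at each summit and the background were recovered from the deposited fold and −log10 p by inverting a Poisson test (pseudocount 1), and 100% of summits came within 0.1 of a whole number. No depth in reads was given, and the tag counts limit precision through counting error only. At most 0.796% of intervals were identical between replicates.

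Genes, starts and sequences came from GENCODE 44 and the GRCh38 genome, and RefSeq promoters (GRCh38.p14) matched 8 of the 10 members. The members and gene lists were chosen with earlier results of these data known. All members are named, with each region within 1 kb of a start and each called region, and of the wider lists the 4 called regions with the largest change in each experiment. One marker gene is not reported here. The alternatives are given in the closing section. Deviations of libraries with the same replicate number correlated only weakly, so the numbers were not taken as pairs. This check cannot exclude a pairing, and fits with a replicate block are given in the closing section.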

Additional observations from a re-analysis of the deposited data

Results flagged for a closer look

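A pair of member regions were singled out because their change differed between the NaBu and the NaPr experiment by a test of the difference itself. The region 6533 bp upstream of PGLYRP4 gained 22.7 percentile points more after NaBu, with a treated minus untreated change of 31.4 points after NaBu and 8.62 after NaPr. Its untreated libraries stood at 49.3 ± 7.85 (SD, n = 3) in the NaBu and at 69.6 ± 2.98 in the NaPr experiment, and its treated libraries at 80.7 ± 4.99 and 78.2 ± 5.27. The region 6699 bp upstream of LCN2 differed by −21.9 points, with a peak in the 3 NaPr-treated libraries, through which alone it was tested, and in none of the other 9. Its NaPr summits held 17, 18 and 30 tags, and the NaBu lists needed at least 13 to 19 tags for a listed peak at their lowest background. Dose, date and untreated culture cannot be told apart from the compound in both cases. With 3 libraries in a group, single libraries were not examined for outlying values.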

How the results depend on the processing

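The counts moved as follows. Of the 6598 regions called after NaPr, the count became 0 when peaks were ranked by fold and 0 on the log2(−log10 p + 1) scale (20919 and 15448 with an unadjusted limma p below 0.05), 10553 with summit windows, 2492 when an interval had to cover 50% of a region, 1313 with no filter, 18129 in one fit of 12 libraries, 20947 on recovered tags scaled by their median, and 0 to 3179 when 1 library was left out, 0 without treated replicate 3. The 1 NaPr member region became 5 within 50 kb, 0 by fold and 0 by log2, 2 for the top 50000 intervals, 2 with summit windows, 2 with a peak in at least 3 libraries, 5 in the 12-library fit, 2 and 6 on tags scaled by background and median, and 0 to 1 without a library. The 45903 NaBu regions became 22552 for the top 50000 intervals, 27603 with 50% coverage, 28254 by log2 and 36865 to 42215 without a library, and the 8 NaBu member regions became 4 within 2 kb, 29 within 50 kb, 4 for the top 50000 and 7 to 9 without a library. The 2 differing regions became 0 by fold, 1 for the top 50000, 1 with 50% coverage, 0 with no filter and 0 to 3 without a library. The cause was not tested.

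With a replicate block the NaPr member count was 2 (the LCN2 start added, adjusted p = 0.0341), the NaBu member count 9 and the count of differing regions 0, and the differences at PGLYRP4 and LCN2 had adjusted p of 0.103 and 0.0697, against 7647 and 47756 regions called over the genome. Deviations of libraries with the same number correlated at 0.00907 to 0.0585, so the numbers were not taken as pairs, although each library correlated best with its own number.

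The share of higher calls was 58.3% after NaPr (92.5% on tags scaled by background, 38.1% by median, 49.8% for the top 50000, and from 35.6% without treated replicate 1 to 82.7% without untreated replicate 3) and 64.7% after NaBu (52.2% for the top 50000, 54.3% by log2, 45.5% and 46% on tags). The tag scales were chosen after seeing the data. No named region that passed the threshold as reported changed direction in any alternative run. The PGLYRP4 region 6533 bp upstream, which passed after NaPr on tags alone, was at −19.4 points there with 50% coverage (adjusted p = 0.705). Peaks under 5 to 19 tags at the lowest background were not listed, so gains and losses below that were not detectable.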
